A study of Mus musculus with 4 samples.

Results

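The EGFR family of receptors and ligands was followed in 4 mouse pancreatic cancer cell lines. The family was taken as 10 genes by name, namely the ligands Tgfa, Areg, Ereg, Btc, Hbegf, Epgn and Egf and the receptors Egfr, Erbb2 and Erbb3, matched to the gene symbols of the array platform. Of these, 9 of 10 had a transcript cluster with a symbol of their own, among 19938 genes in all. Each was represented by 1 cluster. For Erbb2, 1 further cluster carried several symbols and was not used. Areg, the amphiregulin gene, was not analysed here.

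The TPAC lines K459 and TCPA18654 carried the Ela-TGFa transgene, the Cre allele labelled Ptg1a+/CRE, Trp53fl/fl and p65fl/fl. The TPC lines TPC18645 and TPC20223 carried the same alleles without p65fl/fl. By these labels all 4 lines share the TGF-α transgene and floxed Trp53 with Cre, and only the TPAC lines carry floxed RelA/p65 in addition. Loss of p53 or of RelA/p65 in these cultures was not shown here, and Trp53 was not among the measured genes. Each line was grown from a pancreatic tumour, left untreated and hybridised once to an Affymetrix Mouse Gene 1.0 ST array, which gives 2 arrays per genotype. The deposited values are log2 signals made by RMA, with array medians of 7.24 and 7.21 in the TPAC lines and 7.19 and 7.26 in the TPC lines. The number of arrays limits the precision, and nothing says whether separate mice gave rise to the lines of one genotype, so a p-value measures only the spread between these cultures. The sources used here do not give the age of the mice.

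The receptors of this family are tyrosine kinases at the cell surface that act in pairs. TGF-α, amphiregulin, epigen and EGF bind EGFR, whereas betacellulin, HB-EGF and epiregulin bind ErbB4 as well. ErbB2 has no known ligand of its own and serves as a partner for the others, and ErbB3, whose kinase is weak, binds neuregulins and passes the signal on through its partners. The ligands are made as membrane-bound precursors and are released by cell-surface proteases. In the pancreas, TGF-α and EGFR are known for the conversion of acinar cells into duct-like cells.

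The arrays carry a limit that bears on Tgfa. The elastase-1 promoter drives the transgene and is active in acinar cells, and the species of its TGF-α sequence and the part of the transcript it holds are not stated in the sources used here. The Tgfa signal therefore need not show the transgene. Cela1, the endogenous elastase-1 gene, had log2 signals of 7.37 in K459 and 7.44 in TCPA18654, against 7.75 in TPC18645 and 7.77 in TPC20223. Of 7 acinar markers, 4 were dim, that is not above the 40th percentile of all genes by mean signal (6.96 on the log2 scale). The values carry no detection call.

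The lines did not fall into pairs by genotype. TPC18645 and TCPA18654, which have different genotype labels, differed 2-fold or more in 54 of 19938 genes, whereas the TPAC lines differed from each other in 772 and the TPC lines in 2243. TPC20223 had low signals of ductal and epithelial markers: Krt19 was at 6.08 and Cdh1 at 6.96, against 11.74 to 12.65 and 12.57 to 12.68 in the other lines, and 6 of 8 markers of this list lay at least 1 log2 unit below every other line. Of 7 fibroblast markers, 3 (Col1a1, Col1a2 and Pdgfra) lay at least 1 log2 unit above every other line in TPC20223 (4.24% of all genes), with mean signals over the list of 9.94 in TPC20223 and 8.30 to 8.62 in the other lines. Over 7 mesenchymal markers the mean signal was 11.52 in TPC20223 and 10.66 to 10.94 in the other lines. In TPC20223, 0 of these 7 lay at least 1 log2 unit above every other line. The means of all 7 were lower in TPAC cells (median log2 difference of -0.39, and -0.21 without TPC20223), whereas 51.7% of all genes had higher means there. Vim was at 13.79 to 13.91 in all 4 lines. The 6 immune markers were dim, with list means of 5.71 to 5.88. Rela, the gene targeted in TPAC mice, had signals of 10.82 and 11.10 in the TPAC lines, against 11.12 and 10.70 in the TPC lines; the cluster is not known to lie in the deleted part, so this signal does not check the labels.

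Tgfa, Btc and Egfr are shown here with the sequence upstream of their first annotated transcript start, because these are the promoters of the mouse genes themselves, whereas the transgene has the elastase-1 promoter, and because the signals of all 3 genes were low in TPC20223. The sequences are those of RefSeq on GRCm38.p6, read 5′ to 3′ on the strand of the gene, and capitals mark the E2-box CAGGTG, the letters to which repressors of the Snail and ZEB families are known to bind. For Tgfa, whose window is set on a later start, only the 66 bases before the first annotated start are given, and for Btc and Egfr the 250 bases before it. Tgfa is on chr6:86194972-86195037 (plus strand), Btc on chr5:91402995-91403244 (minus strand) and Egfr on chr11:16751953-16752202 (plus strand).
Tgfa: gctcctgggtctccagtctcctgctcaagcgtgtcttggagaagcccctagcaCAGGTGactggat
Btc: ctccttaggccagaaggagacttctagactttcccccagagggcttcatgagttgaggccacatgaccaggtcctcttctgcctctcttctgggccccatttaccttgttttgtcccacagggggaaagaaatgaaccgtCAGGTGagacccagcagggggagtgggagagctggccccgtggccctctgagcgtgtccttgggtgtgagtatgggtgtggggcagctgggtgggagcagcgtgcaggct
Egfr: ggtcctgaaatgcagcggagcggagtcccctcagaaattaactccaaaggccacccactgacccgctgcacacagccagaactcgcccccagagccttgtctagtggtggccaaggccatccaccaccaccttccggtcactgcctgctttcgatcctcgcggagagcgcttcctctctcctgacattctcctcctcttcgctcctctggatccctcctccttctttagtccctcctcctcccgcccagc

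Promoter windows of 300 bases (250 before and 50 after a gene's start) were at hand for 7 of the 10 family genes. Ereg, Hbegf and Erbb3 had none. The E2-box, searched as CAGGTG on both strands, was in a window of 4 of these genes (Tgfa, Btc, Epgn and Areg) and in 20.2% of 32851 windows of all genes. In the 250 bases of Btc it begins at position -110 from the start. The AP-1 motif TGANTCA was in the window of 0 of the 7 genes, against 7.81% of all windows, and the cyclic AMP response element TGACGTCA in that of Areg alone, against 1.79%. The 7 genes had 8 windows in all. Members are counted here as genes, whereas the percentages are shares of windows, so the units are unlike. A match describes letters in these windows, and no match says only that the letters are not there. Egfr had no E2-box in its window, and a part of Snail or ZEB factors in the low signals was not tested.

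With the 4 lines together, no member of the family passed the test between TPAC and TPC cells. With calls set at an adjusted p of at most 0.05 and a log2 difference of at least 0.58 in size, limma called 0 of 9 members and 0 of 19938 genes (0%; adjusted p of 0.989 or more). At an unadjusted p under 0.05 with the same size, 0 of 9 members and 84 genes (0.421%) passed. Mean signals were higher in TPAC cells for 7 members, as for 51.7% of all genes, and lower for 2, with a median log2 difference of 0.52 over the 9 members and 0.01 over all genes. Without TPC20223 the median was 0.03 with 5 of 9 members higher, and without TPC18645 it was 1.10 with 7 of 9 higher. Tgfa, Btc, Hbegf and Erbb3 had the larger values, yet the lines of the genotypes overlapped for each of them. The labels of 2 lines against 2 can be assigned in 6 ways, and the smallest p of a two-sided exact permutation test is then 0.333.

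Tgfa, which encodes the ligand of the transgene, had a log2 signal of 9.07 in K459 and 8.90 in TCPA18654, against 8.94 in TPC18645 and 7.88 in TPC20223. K459, TCPA18654 and TPC18645 lay within 0.17 of each other, and only TPC20223 was apart, 2.03-fold below the lowest of them. The mean was 8.98 ± 0.12 in TPAC cells and 8.41 ± 0.75 in TPC cells (SD, n = 2 each), a log2 difference of 0.58 (standard error, SE, 0.41; limma, adjusted p = 0.989). Without TPC20223 the difference was 0.05, and without TPC18645 it was 1.10 (adjusted p = 0.167). The Tgfa signal thus differed between the TPC lines by more than between K459, TCPA18654 and TPC18645.

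Hbegf, the gene of heparin-binding EGF-like growth factor, gave the same picture with a wider step. Its log2 signal was 11.11 in K459 and 10.97 in TCPA18654, against 11.01 in TPC18645 and 9.07 in TPC20223. Both TPAC lines and TPC18645 spanned 0.14, and TPC20223 was 3.73-fold below the lowest of them. The mean was 11.04 ± 0.10 in TPAC cells and 10.04 ± 1.37 in TPC cells (SD, n = 2 each), a log2 difference of 1.0 (SE 0.72; limma, adjusted p = 0.989), and this difference was 0.03 without TPC20223 and 1.97 without TPC18645 (adjusted p = 0.106).

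Btc, the betacellulin gene, was at 8.76 in K459 and 7.74 in TCPA18654, against 7.89 in TPC18645 and 6.26 in TPC20223. Here 3 levels were seen, with K459 high, TCPA18654 and TPC18645 in the middle and 0.15 apart, and TPC20223 low. The mean was 8.25 ± 0.72 in TPAC cells and 7.07 ± 1.15 in TPC cells (SD, n = 2 each), a log2 difference of 1.18 (SE 0.71; limma, adjusted p = 0.989). The difference was 0.67 without K459 and 0.36 without TPC20223, against 1.68 without TCPA18654 and 1.99 without TPC18645.

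Ereg, which encodes epiregulin, was at 7.96 in K459 and 9.45 in TCPA18654, against 9.22 in TPC18645 and 7.14 in TPC20223. The high lines were TCPA18654 and TPC18645, one of each genotype, and K459 sided with TPC20223 at the low end. The log2 difference between the genotypes was 0.52 (SE 0.94; limma, adjusted p = 0.989), and its sign turned without TCPA18654 (-0.22) and without TPC20223 (-0.52). In the mouse genome Epgn, Ereg, Areg and Btc lie in this order on chromosome 5 with 0 other protein-coding genes between them. In K459 minus TCPA18654, the neighbours Ereg and Btc went opposite ways, with -1.49 and 1.02.

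Epgn, the epigen gene, and Egf were dim, and their differences are given without weight on the exact size. The Epgn signal was 5.69 in K459 and 5.76 in TCPA18654, against 5.79 in TPC18645 and 5.29 in TPC20223. Egf ranged from 6.81 to 6.91 over the 4 lines and was the only member whose genotypes did not overlap, with 6.84 and 6.81 in the TPAC lines and 6.91 in each TPC line. Such a lower order without overlap was found for 13.3% of all genes. The log2 difference was -0.09 (SE 0.12; limma, adjusted p = 0.989).

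**Figure D1:**
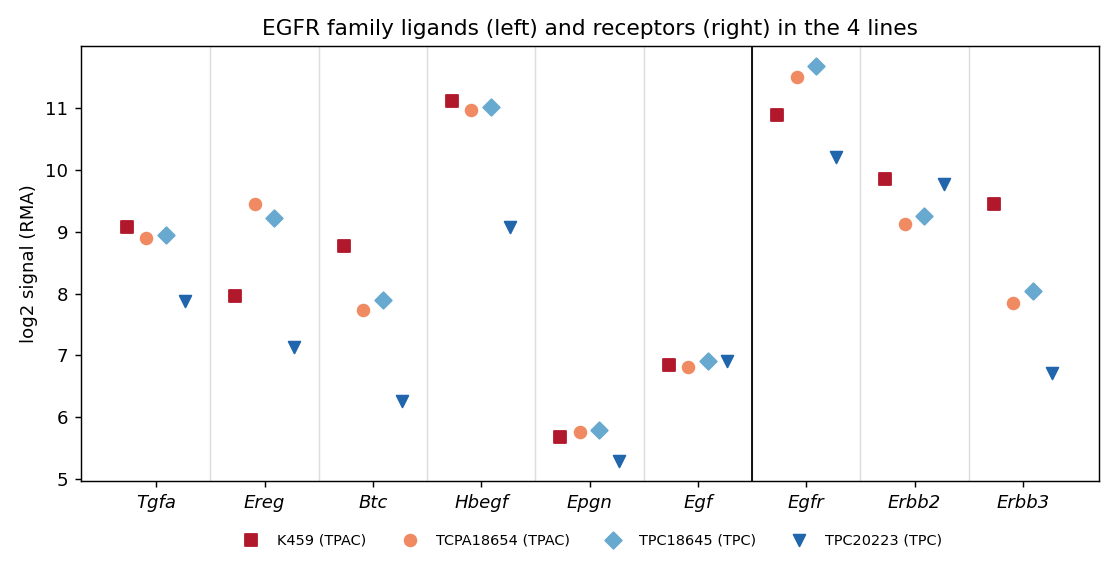
RMA log2 signal (y axis) of 6 ligands and 3 receptors of the EGFR family (x axis), with 1 point per line and array. TPC20223 (triangles) was below the other 3 lines for Tgfa, Ereg, Btc, Hbegf, Epgn, Egfr and Erbb3, and signals of different genes are not to be compared.

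Among the receptors, Egfr was at 10.89 in K459 and 11.49 in TCPA18654, against 11.68 in TPC18645 and 10.21 in TPC20223. As for Ereg, K459 was nearer to TPC20223 than the 2 remaining lines were. The mean was 11.19 ± 0.42 in TPAC cells and 10.94 ± 1.04 in TPC cells (SD, n = 2 each), a log2 difference of 0.25 (SE 0.59; limma, adjusted p = 0.989). The sign turned without TPC20223 (-0.49) and without TCPA18654 (-0.05).

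Erbb3 had the widest span of the members, 2.72 over the 4 lines. Its log2 signal was 9.44 in K459 and 7.84 in TCPA18654, against 8.04 in TPC18645 and 6.72 in TPC20223. The order of the lines was that of Btc, with K459 3.03-fold above TCPA18654 and TPC20223 2.17-fold below it. The log2 difference between the genotypes was 1.26 (SE 0.77; limma, adjusted p = 0.989), and it was 0.46 without K459, 0.60 without TPC20223, 2.06 without TCPA18654 and 1.92 without TPC18645.

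Erbb2 went its own way. Its log2 signal was 9.85 in K459 and 9.12 in TCPA18654, against 9.26 in TPC18645 and 9.77 in TPC20223. The line with low Egfr and Erbb3 signals was thus among the higher for Erbb2, and the low lines were TCPA18654 and TPC18645, 0.14 apart. The mean was 9.48 ± 0.52 in TPAC cells and 9.52 ± 0.36 in TPC cells (SD, n = 2 each), a log2 difference of -0.03 (SE 0.35; limma, adjusted p = 0.996). Its sign turned without TCPA18654 (0.34) and without TPC20223 (0.23).

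**Figure D2:**
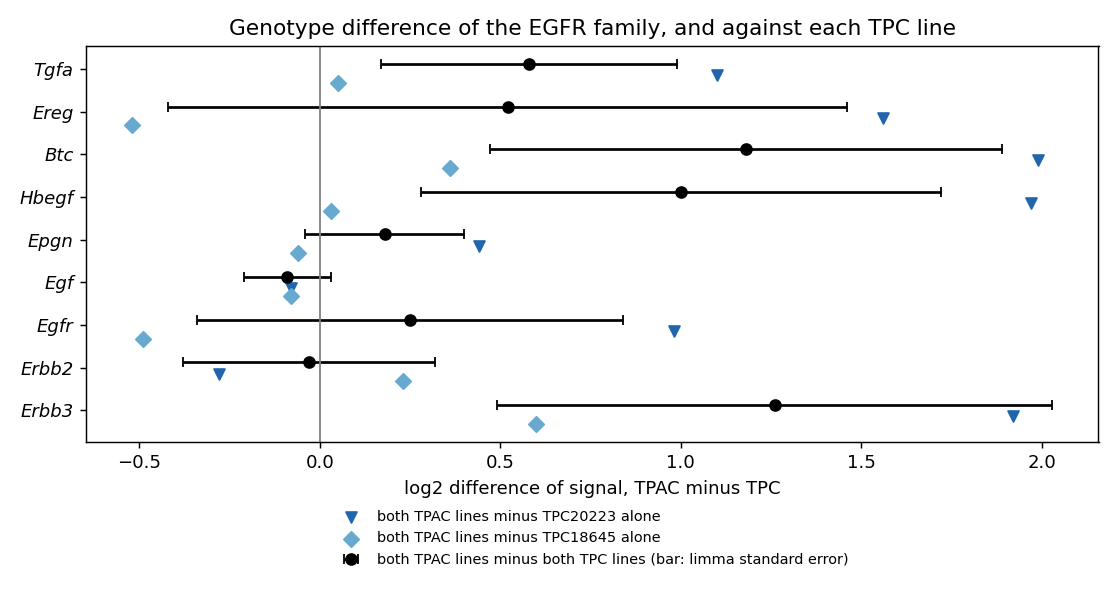
Log2 difference of the signal, TPAC minus TPC, for each member; black points with bars are the 4 lines together with limma's standard error, and coloured points set the mean of both TPAC lines against 1 TPC line. Against TPC20223 alone, Btc, Hbegf and Erbb3 differed by 1.99, 1.97 and 1.92, and against TPC18645 alone by 0.36, 0.03 and 0.60.

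TPC20223 was below all 3 other lines for 7 of 9 members, an order found for 38.8% of all genes. The gap was 1 log2 unit or more for 4 members (Tgfa, Btc, Hbegf and Erbb3), against 2.95% of all genes. For Ereg, Egfr and Epgn the gap to the lowest of the other lines was -0.82, -0.68 and -0.40, and Egf and Erbb2 were not lowest in this line. In the same line 6 of 8 ductal and epithelial markers were low and 3 of 7 fibroblast markers were high by 1 log2 unit or more, as given above. Their part in the result was not tested. In cultures measured in bulk, fewer cells of a type and less RNA per cell cannot be told apart.

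Within the TPC genotype, TPC20223 minus TPC18645 was lower by 1 or more for 6 of 9 members, against 5.28% of all genes. Ereg differed by -2.08, Hbegf by -1.94, Btc by -1.63, Egfr by -1.47, Erbb3 by -1.32 and Tgfa by -1.06. Of the 3 members left, Epgn differed by -0.50, Egf by 0.00 and Erbb2 by 0.51. Ligands and receptors were therefore both among the lower genes of this line. Single lines, with 1 array each, were compared without a test.

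Within the TPAC genotype, K459 minus TCPA18654 exceeded 1 in size for 3 of 9 members, against 3.87% of all genes. Erbb3 and Btc were higher in K459, by 1.60 and 1.02, and Ereg was lower, by a log2 difference of -1.49 (2.81-fold). Erbb2 differed by 0.73 and Egfr by -0.60, so the receptors went in different directions in this line. Tgfa and Hbegf differed by 0.17 and 0.14. The list of ductal and epithelial markers was also higher on average in K459, though not for each gene. Their mean over the 8 genes was 12.17 in K459, 11.12 in TCPA18654 and 10.90 in TPC18645. Epcam was at 9.77, 7.37 and 6.82 and Krt7 at 12.13, 10.35 and 10.02 in these lines. Krt8 was at 13.72, 13.44 and 13.33 and Krt18 at 13.3, 13.14 and 12.92, which are smaller steps. Cdh1 did not set K459 apart, at 12.62, 12.68 and 12.57. Krt7, Krt8 and Krt18 are outside the rule for named genes given below. The fibroblast list separated K459 less, with means of 8.62 in K459, 8.3 in TCPA18654 and 8.41 in TPC18645. Of its markers named above, Col1a1 was at 10.36, 8.72 and 8.53 and Col1a2 at 9.76, 7.69 and 7.64 in these lines. Pdgfra went the other way, at 7.72 in K459, 8.0 in TCPA18654 and 8.32 in TPC18645. The part of these markers in the result was not tested. Against TPC18645, K459 showed the same order 2.64-fold higher for Erbb3 and 1.83-fold higher for Btc, with a log2 difference of -1.26 for Ereg, where 4.34% of all genes differed 2-fold or more.

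Across the genotype labels, TCPA18654 and TPC18645 were nearly alike for the whole family. No member differed by more than 0.23 between them, the value of Ereg, and 0.271% of all genes differed by 1 or more. The 2 lines stood next to each other in the order of signals for 8 of 9 members. The exception was Egf, whose 4 signals spanned 0.10.

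**Figure D3:**
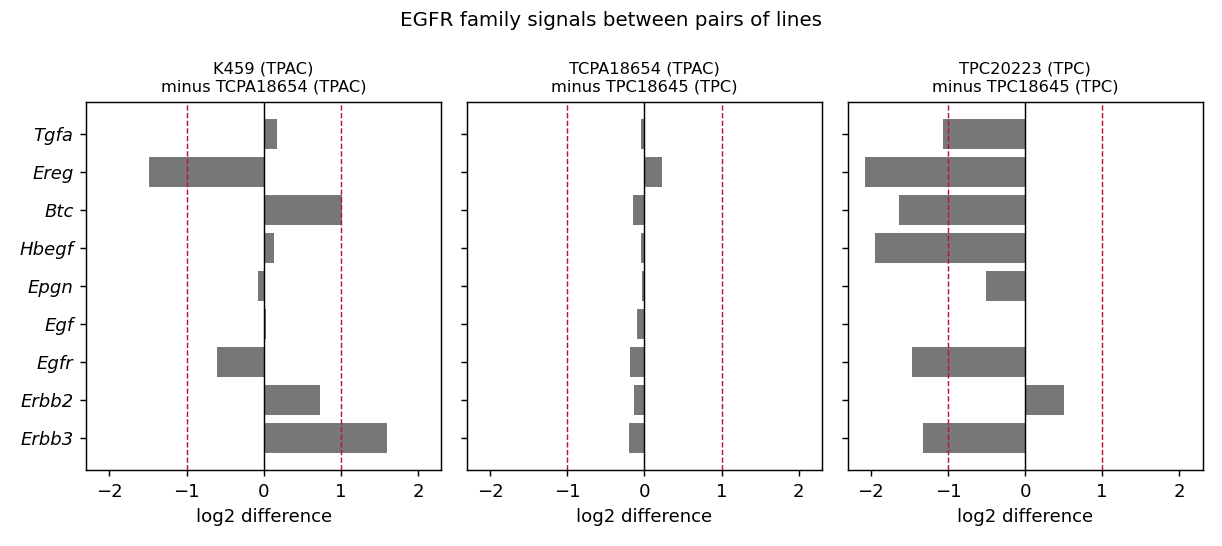
Log2 difference of each member between 3 pairs of lines, the first-named line minus the second; dashed lines mark a 2-fold difference. K459 minus TCPA18654 holds differences of both signs, TCPA18654 minus TPC18645 none over 0.23 in size, and TPC20223 minus TPC18645 6 members lower by 1 or more.

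For the members whose signals spanned 2 or more, the genes of nearest profile were sought by the root mean square difference of signals centred on the mean of the 4 lines. With 4 lines many genes can share a profile, and the values describe only these arrays. Nearest to Erbb3 were Foxa1, an epithelial forkhead factor gene (0.08), St3gal6, a sialyltransferase gene (0.10), and Fos, an AP-1 subunit gene (0.12). Foxa1 had signals of 10.32 in K459 and 8.62 in TCPA18654, against 8.72 in TPC18645 and 7.56 in TPC20223. Nearest to Btc were Duoxa2 (0.06), a maturation factor gene of a dual oxidase, Crip1 (0.07) and Pip5k1b (0.07), a lipid kinase gene. Nearest to Hbegf were Lpcat4 (0.02), Tpd52 (0.05) and Dtx4 (0.05), and nearest to Ereg were Pdgfb (0.09), a platelet-derived growth factor gene, Sytl2 (0.13) and Igsf11 (0.14). Among the members themselves, Btc and Erbb3 were each other's nearest (0.24), the nearest to Hbegf was Btc (0.34) and the nearest to Ereg was Egfr (0.41).

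**Figure D4:**
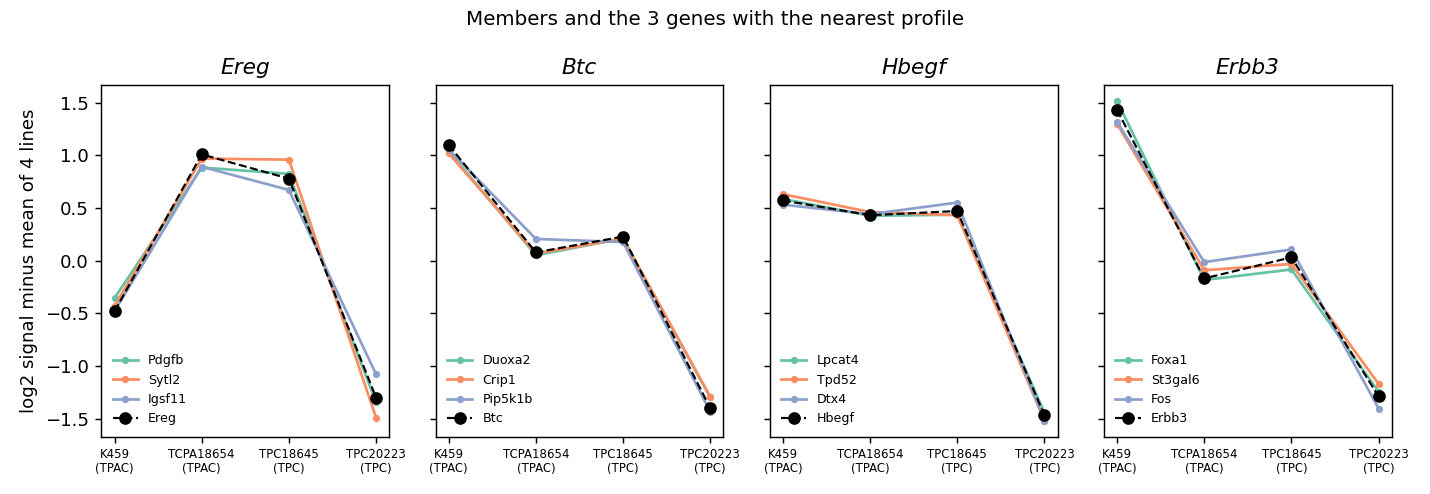
Log2 signal minus the mean of the 4 lines for Ereg, Btc, Hbegf and Erbb3 (black, dashed) and for the 3 genes of nearest profile to each (coloured), by line. Ereg peaks in TCPA18654 and TPC18645, Btc and Erbb3 in K459, and Hbegf is low in TPC20223 alone.

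The genes around the receptors were given by 5 lists, and limma called 0 genes of any of them between TPAC and TPC cells. The list of neuregulins and Erbb4, the remaining ligands and receptor of the wider family, had 3 of 5 genes with higher and 2 with lower means in TPAC cells and a median log2 difference of 0.08, which was -0.05 without TCPA18654 and -0.08 without TPC20223. Nrg1, whose product binds ErbB3, was at 9.01 in K459 and 10.01 in TCPA18654, against 10.11 in TPC18645 and 9.43 in TPC20223, so that K459, the line with high Erbb3, was the lowest for Nrg1. Nrg3 and Nrg4 were dim and differed by 0.28 and 0.16, and the sign of Nrg4 turned without K459 (-0.05) and without TPC20223 (-0.20).

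Genes of the proteases that release the ligands, with their partners, had a median of 0.04, with 7 of 13 genes higher and 6 lower, and medians from -0.05 to 0.01 with 1 line left out. Adam12, a metalloprotease gene, was at 7.75 in K459 and 7.68 in TCPA18654, against 8.26 in TPC18645 and 9.24 in TPC20223, a log2 difference of -1.03 (SE 0.38; limma, adjusted p = 0.989). Without TPC20223 it was -0.54. Adam8 differed by 0.38, or by 0.22 without TPC20223, and Adam15 by -0.24. Adam10, chosen after its values were seen, was the only gene of this list with TPC20223 at least 1 log2 unit apart, at 10.13 in TPC20223 and 11.17 to 11.48 in the other lines.

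Adaptors and kinases downstream of the receptors had a median of 0.01 over 20 measured of 25 listed genes, with 11 higher and 9 lower, and medians from -0.13 (without TPC20223) to 0.08 with 1 line left out. Stat3, Pik3r1 and Braf, of smallest p in this list, differed by -0.37, -0.39 and -0.68. Without TPC20223 Stat3 differed by -0.14 and Pik3r1 by -0.22, and without K459 Pik3r1 differed by -0.19. Braf was at 10.53 in TPC20223, against 9.29 to 9.47 in the other lines, and the difference was -0.15 without this line.

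Genes of receptor inhibitors had a median of 0.13, with 8 of 12 higher and 3 lower. It was 0.24 without K459, 0.25 without TCPA18654, 0.33 without TPC18645 and 0.06 without TPC20223. Errfi1, which encodes an intracellular inhibitor of EGFR kinase, was at 12.31 in K459 and 11.41 in TCPA18654, against 11.13 in TPC18645 and 10.69 in TPC20223. Here the TPAC lines lay above the TPC lines, as for 13.7% of all genes. The log2 difference was 0.95 (SE 0.39; limma, adjusted p = 0.989), and it was 0.50 without K459. Cblc, a ubiquitin ligase gene of the Cbl family, and Ptprj, a receptor phosphatase gene, differed by 0.81 and 0.86, and by 0.34 and 0.30 without K459.

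Feedback and target genes of the MAPK cascade, through which EGFR signals, had higher means in TPAC cells for 15 of 16 genes, against 51.7% of all genes, and a median of 0.42. It was 0.16 without K459, 0.98 without TCPA18654, 0.48 without TPC18645 and 0.23 without TPC20223. The mean signal over the list was 10.5 in K459 and 9.8 in TCPA18654, against 9.86 in TPC18645 and 9.31 in TPC20223. TCPA18654 thus lay below TPC18645. TPC20223 lay at least 1 log2 unit below the other lines for 5 of the 16 (Dusp4, Dusp5, Dusp6, Egr1 and Phlda1), against 2.95% of all genes. Dusp6, an ERK phosphatase gene induced by ERK itself, was at 11.87 in K459 and 11.22 in TCPA18654, against 11.14 in TPC18645 and 8.98 in TPC20223. Dusp4 was at 10.44 and 9.44 in the TPAC lines, against 9.45 in TPC18645 and 7.62 in TPC20223. Fosl1, an AP-1 subunit gene, had TPAC signals of 10.30 and 10.01, against TPC signals of 9.55 and 9.67 (log2 difference of 0.55, SE 0.17; limma, adjusted p = 0.989). Dusp5, Egr1 and Phlda1 were named after their values were seen.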

How the data were processed

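RNA of 4 cell lines was hybridised to Affymetrix Mouse Gene 1.0 ST arrays, 1 array per line. The authors deposited log2 signals from RMA; Affymetrix Expression Console 1.4 is named in the processing notes of the submitters. A filter, an array batch and a genome build are not given in the sources used here. RMA sets the arrays to a common distribution, so a difference in total RNA cannot be seen. Of 28941 transcript clusters, 21789 carried 1 gene symbol in the platform annotation, 1621 carried several and 5531 were unnamed. Of the clusters with 1 symbol, 21698 were found by Entrez number among the RefSeq genes of GRCm38.p6, with 0 symbols changed. The brightest cluster stood for each gene (19938 genes). The TPAC lines were set against the TPC lines with limma 3.58.1 in R 4.3.3 (lmFit and eBayes, two-sided, Benjamini-Hochberg over all genes), with thresholds that the paper states for another comparison. The fit was tested on simulated data in which the changed genes differed by more than any member did here. It checks the code and does not tell what these 4 arrays can detect. The family and the lists were chosen with earlier results of these data known. Named genes are the members, the 3 genes of smallest p in each pathway list, the 3 genes nearest in profile to members spanning 2 or more, and checks of alleles and cell state.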

Additional observations from a re-analysis of the deposited data

How the results depend on the processing

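No gene was called under any alternative except the unadjusted threshold, which passed 84 genes (38 higher and 46 lower in TPAC) and 0 members; by the methods' t-test, 0 genes and 0 members passed after adjustment. The median log2 difference over the members was 0.52 and lay between 0.52 and 0.58 with cyclic loess, with arrays set to 1 median, with clusters averaged per gene, with an intensity trend, or only the 7 members that were not dim. It ranged from 0.03 (without TPC20223) to 1.10 (without TPC18645) when 1 line was left out, which leaves 1 array in a genotype that is assumed to vary like the other. The count of members with a higher mean in TPAC, an alternative chosen after seeing the data, was 7 of 9 with the 4 lines together, 6 without TCPA18654 and 5 without TPC20223. Each member was represented by 1 cluster, so averaging clusters could not change its difference, nor could the intensity trend or the filter for dim genes. The signs under these alternatives, and the median where all members were kept, were fixed in advance. Of 79 values of single members under the alternatives, which include those with a sign fixed in advance, 72 kept their sign. The 7 that turned came without TCPA18654, with -0.22 for Ereg, -0.05 for Egfr and 0.34 for Erbb2, and without TPC20223, with -0.52 for Ereg, -0.06 for Epgn, -0.49 for Egfr and 0.23 for Erbb2. With 1 line left out, Ereg ran from -0.52 to 1.56, Epgn from -0.06 to 0.44, Egfr from -0.49 to 0.98 and Erbb2 from -0.39 to 0.34. The lowest adjusted p of a member was 0.106, for Hbegf without TPC18645. No paired analysis was possible because the labels give no replicate numbers that the genotypes share.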
